A study of Saccharomyces cerevisiae with 13 samples.

Results

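The genes described here are 10 heat shock protein and chaperone genes of budding yeast: the Hsp70 genes SSA1 (YAL005C), SSA2 (YLL024C), SSA3 (YBL075C) and SSA4 (YER103W), the Hsp90 genes HSP82 (YPL240C) and HSC82 (YMR186W), the disaggregase gene HSP104 (YLL026W), the small heat shock protein genes HSP26 (YBR072W) and HSP42 (YDR171W), and HSP12 (YFL014W). They were taken by open reading frame name, and all 10 were found, each as 1 row measured on all 13 arrays, among 6140 genes in the table. W303 cells carrying the SSD1-V allele, grown in the rich medium YEPD, were held in G1 by alpha factor, a mating pheromone, and released into YEPD. They were sampled at 0 min and at every 10 min up to 120 min, which the design text gives as 2 cell cycles. The reference on every array was an untreated asynchronous W303a culture in YEPD, whose SSD1 allele the labels do not name. Each time point has 1 array from 1 synchronised culture, so no value has a replicate. Every standard error (SE) below measures the scatter of arrays about a fitted curve, except for the level between the cycles. There it measures how the difference between paired arrays varied over the positions in the cycle.

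Chaperones bind unfolded proteins and help them to fold or to stay soluble. In yeast the transcription factor Hsf1 drives the Hsp70 and Hsp90 genes through heat shock elements, whereas Msn2 and Msn4 drive many general stress genes through stress response elements, and HSP104, HSP26, HSP42 and HSP12 respond to one or both of these systems. Cells in fast growth keep the general stress genes low through protein kinase A, and the chaperone genes are best known for their induction by heat.

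A value is the deposited log ratio of a sample (Cy5) over the asynchronous culture (Cy3), taken as log2. It is a ratio within 1 gene and says nothing of which gene is more abundant. The log base and the sign of the ratio are not stated, and its direction is only likely, from the labelled dyes. With natural logarithms, the swing of SSA4 given below would be 0.988 on the log2 scale in place of 0.68. Between 6178 and 6186 rows were measured per array, and the standard deviation over rows was between 0.24 (at 100 min) and 0.39 (at 0 min). Arrays 30 min apart had a mean correlation of -0.45 over genes on gene-centred values (10 pairs), a value that a turned sign would not alter. The direction was kept from the labelled dyes alone. Of the markers of MATa cells 4 of 6 had a mean ratio called lower than in the reference, as had 88 of all 6137 genes tested. The markers of MATa cells had a median of 1.46 at 0 min and -1.63 at 40 min. Those of alpha cells (4 genes) and of diploid and meiotic cells (8 genes) had medians between -0.18 and 0.10 on every array.

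**Figure D1:**
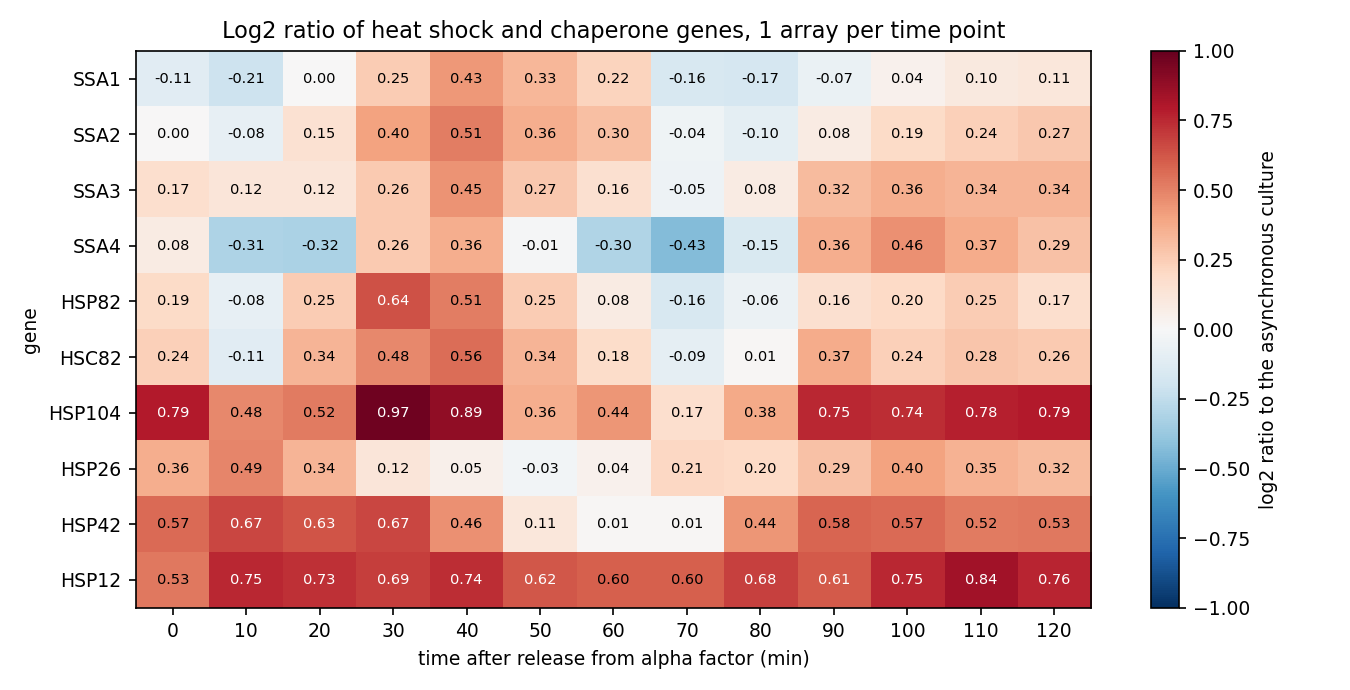
Log2 ratio to the asynchronous culture (colour and printed value) of the 10 genes (rows) at each time after release in min (columns), 1 array per column. The Hsp70, Hsp90 and HSP104 rows are highest at 30 or 40 min (SSA4 at 100 min, with 0.46) and pale or blue at 70 min, HSP26 is palest at 50 min, and HSP12 lies between 0.53 and 0.84 throughout.

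The Hsp70 and Hsp90 genes passed a test for a 60 min rhythm, a call that held for SSA4 alone once correlation between neighbouring arrays was estimated. In a fit of a 60 min cosine and sine to every gene, 6 of the 10 genes were periodic (limma, adjusted p under 0.05), namely SSA1, SSA2, SSA3, SSA4, HSP82 and HSC82. By the same rule 30.1% of all genes were periodic. With an estimated correlation 1 of the 10, SSA4, was periodic, as were 13.9% of all genes, and the other 5 had adjusted p = 0.056 to 0.12 (limma). The fitted swing, which is the log2 difference between peak and trough, had a median of 0.43 over the 10 genes and of 0.21 over all 6137 genes tested. In this 1 fit over both cycles the peaks of the 6 fell between 40.1 and 44.2 min after release, modulo 60. By the same fit 222 of all 1847 periodic genes peaked between 40 and 45 min. The peaks of the 6 depended on the period set. They fell between 38.7 and 43.8 min at a period of 65 min and between 35.5 and 43.6 min at 70 min. Fitted by cycle, the peak of each of the 6 lay later in the second cycle, as given below. SSA4 was also the 1 member called without the 40 min array or without the 70 min array.

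SSA4 encodes an Hsp70 that is scarce in unstressed cells and strongly induced by heat. Its log2 ratio was 0.08 at 0 min and then, from 10 to 60 min, -0.31, -0.32, 0.26, 0.36, -0.01 and -0.30. The arrays from 70 to 120 min gave -0.43, -0.15, 0.36, 0.46, 0.37 and 0.29. In each cycle the 30 and 40 min positions were thus high and the 10 and 20 min positions low, while the 50 and 60 min positions were low in the first cycle and high in the second. The fitted swing was 0.68 ± 0.14 (SE, n = 13 arrays), or 1.61-fold, with a peak at 41.0 ± 1.8 min (adjusted p = 0.0093, limma). This was the largest swing of the 10 genes, and 93.3% of all genes tested had a smaller one. It remained called under all 20 alternatives tried, with limma adjusted p between 0.0020 and 0.046, of which 0.017 was that with an estimated correlation.

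SSA3, the other heat-induced Hsp70 gene of the cytosol, followed SSA4 with smaller steps (r = 0.90 over the 13 arrays). Its log2 ratio was 0.17 at 0 min and 0.12, 0.12, 0.26, 0.45, 0.27 and 0.16 from 10 to 60 min. The second cycle gave -0.05, 0.08, 0.32, 0.36, 0.34 and 0.34, so that in both cycles the value was highest at the 40 min position. The swing was 0.33 ± 0.07 (SE, n = 13 arrays) with a peak at 42.5 ± 1.9 min (adjusted p = 0.013, limma). Over the 20 alternatives the limma adjusted p ran from 0.0047 to 0.071, and the estimated correlation gave adjusted p = 0.069. How far the signals of SSA3 and SSA4 were kept apart from each other and from SSA1 and SSA2 was not tested. The ratios also do not show how strong these signals were.

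SSA1 and SSA2 encode the Hsp70 proteins that are made at all times in growing cells. SSA1 had a log2 ratio of -0.11 at 0 min and of -0.21, 0, 0.25, 0.43, 0.33 and 0.22 from 10 to 60 min. From 70 to 120 min it had -0.16, -0.17, -0.07, 0.04, 0.10 and 0.11. The first cycle thus spanned 0.64 and the second 0.28, with the high positions at 40 min and at 120 min. SSA2 was 0 at 0 min, lowest at 80 min (-0.10) and highest at 40 min (0.51), with a median of 0.19. The swings were 0.46 ± 0.12 for SSA1 and 0.43 ± 0.12 for SSA2 (SE, n = 13 arrays), with peaks at 44.2 ± 2.3 min and 43.6 ± 2.3 min. Both were periodic (adjusted p = 0.034 and 0.039, limma). With an estimated correlation the adjusted p was 0.093 for SSA1 and 0.12 for SSA2, within ranges of 0.0026 to 0.28 and of 0.0019 to 0.33 over the 20 alternatives (limma). The pair had the highest correlation among the 10 genes, 0.98 over the 13 arrays, and SSA1 lay below SSA2 on 13 of 13 arrays, by 0.12 ± 0.04 on average (SD over 13 arrays). These genes are near-identical copies, and how far their signals were kept apart was not tested.

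Hsp90 is a chaperone of kinases and receptors, encoded by the heat-inducible HSP82 and by HSC82, which is expressed at all times. HSP82 had a log2 ratio of 0.19 at 0 min and of -0.08, 0.25, 0.64, 0.51, 0.25 and 0.08 from 10 to 60 min. The values from 70 to 120 min were -0.16, -0.06, 0.16, 0.20, 0.25 and 0.17. HSP82 was therefore highest at 30 min in the first cycle and at 110 min in the second, and lowest at 10 and at 70 min. HSC82 was lowest at 10 min (-0.11) and next lowest at 70 min (-0.09), and highest at 40 min (0.56), with a median of 0.26. The swings were 0.50 ± 0.11 for HSP82 and 0.47 ± 0.11 for HSC82 (SE, n = 13 arrays). The peaks lay at 40.1 ± 2.0 min for HSP82 and 40.2 ± 2.0 min for HSC82. Both were called (adjusted p = 0.016 each, limma). With an estimated correlation the adjusted p was 0.056 for HSP82 and 0.092 for HSC82, within ranges of 0.0021 to 0.14 and of 0.0056 to 0.0998 over the 20 alternatives (limma). The genes had r = 0.93 over the 13 arrays, and as close copies they may share signal, which was not tested.

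**Figure D2:**
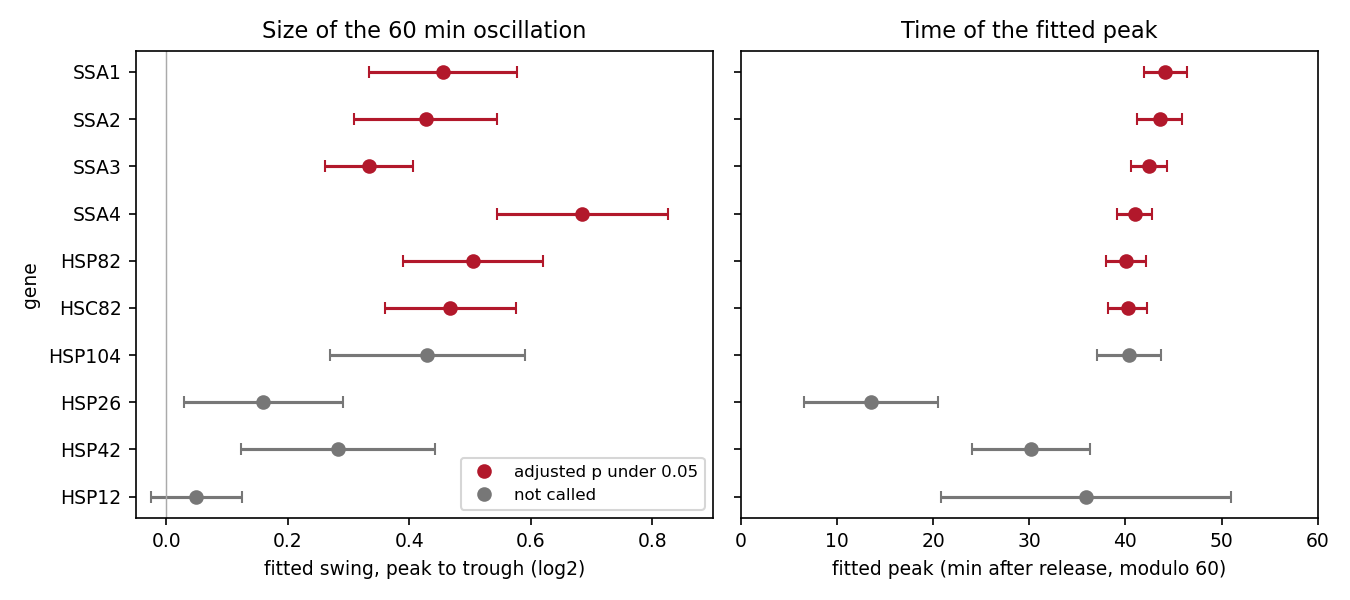
Fitted swing on the log2 scale (left) and fitted peak in min after release, modulo 60 (right), for each of the 10 genes, with bars of 1 standard error from the fit to 13 arrays. Red points, the 6 Hsp70 and Hsp90 genes, had an adjusted p under 0.05 and peaks between 40.1 and 44.2 min, and grey points did not pass.

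HSP104 encodes the ATPase that pulls proteins out of aggregates together with Hsp70. Its log2 ratio was above 0 on 13 of 13 arrays, with 0.79 at 0 min and 0.48, 0.52, 0.97, 0.89, 0.36 and 0.44 from 10 to 60 min. From 70 to 120 min the values were 0.17, 0.38, 0.75, 0.74, 0.78 and 0.79. The high arrays were those at 30 and 40 min and, after a low at 70 min, those from 90 to 120 min, which lay between 0.74 and 0.79. The swing of 0.43 ± 0.16 (SE, n = 13 arrays) was as large as that of SSA2, but HSP104 did not pass (adjusted p = 0.13, limma; 0.026 to 0.35 over the 20 alternatives). Its fitted peak at 40.4 ± 3.3 min lay within the range of the Hsp70 and Hsp90 genes. It passed in 3 of the 20 alternatives, namely after quantile normalization, without the 50 min array and without the 120 min array.

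The small heat shock proteins, which hold unfolded proteins in a soluble or sorted state, had other time courses and were not periodic. HSP26 had log2 ratios of 0.36 at 0 min and of 0.49, 0.34, 0.12, 0.05, -0.03 and 0.04 from 10 to 60 min. It then had 0.21, 0.20, 0.29, 0.40, 0.35 and 0.32 from 70 to 120 min. HSP26 was thus lowest from 30 to 60 min, the 4 arrays on which SSA1 and SSA2 were highest, and it correlated at -0.72 with SSA1 and -0.61 with SSA2 over the 13 arrays. The opposite course was not seen in the second cycle. From 70 to 120 min HSP26 went from 0.21 to 0.32, SSA1 from -0.16 to 0.11 and SSA2 from -0.04 to 0.27. The swing of HSP26 was 0.16 ± 0.13 (adjusted p = 0.60, limma; SE, n = 13 arrays). HSP42 had log2 ratios of 0.57 at 0 min and of 0.67, 0.63, 0.67, 0.46, 0.11 and 0.01 from 10 to 60 min. Those from 70 to 120 min were 0.01, 0.44, 0.58, 0.57, 0.52 and 0.53. A single stretch from 50 to 70 min was low, and the other 10 arrays lay between 0.44 and 0.67. The swing was 0.28 ± 0.16 (adjusted p = 0.36, limma; SE, n = 13 arrays), and HSP42 passed at a period of 70 min (adjusted p = 0.049; 0.049 to 0.64 over the 20 alternatives, limma).

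HSP12 encodes a small protein that binds membranes under stress and is a common reporter of Msn2 and Msn4. It was lowest at 0 min (0.53) and highest at 110 min (0.84), with a median of 0.69, and all 13 arrays lay above 0. Its range of 0.31 was the smallest of the 10 genes. The swing of 0.05 ± 0.07 (SE, n = 13 arrays) was smaller than that of most genes, with 4.6% of genes tested below it (adjusted p = 0.85, limma).

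The comparison of the second with the first cycle asks whether the genes kept their level and their pattern. No member was called in either test. For the level, arrays were paired by position in the cycle, 70 with 10 min up to 120 with 60 min, and 1.42% of all genes were called (limma, adjusted p under 0.05). The median difference, second minus first, was -0.003 over the 10 genes and -0.005 over all genes. SSA1 averaged -0.03 ± 0.13 in the second cycle and 0.17 ± 0.23 in the first (SD over 6 arrays each), a difference of -0.195 ± 0.061 (SE; adjusted p = 0.12, limma, 0.043 to 0.78 over the 17 alternatives). It was lower in the second cycle at 5 of 6 positions, and it passed without the pair of 70 and 10 min. SSA2 averaged 0.11 ± 0.15 in the second cycle and 0.27 ± 0.21 in the first, with a difference of -0.17 ± 0.06 (SE; adjusted p = 0.17, limma). SSA4 averaged 0.15 ± 0.36 in the second cycle and -0.05 ± 0.31 in the first, with a difference of 0.20 ± 0.08 (SE; adjusted p = 0.21, limma), and it was higher in the second at 5 of 6 positions. These genes therefore differed in sign, with SSA1, SSA2, HSP82 (-0.18 ± 0.08) and HSC82 (-0.12 ± 0.06) on one side and SSA4 and HSP26 (0.13 ± 0.09) on the other. These signs were the same after quantile normalization and after median-centring and scaling. For HSP104, SSA3, HSP42 and HSP12 the difference was between -0.01 and 0.02. After quantile normalization it was 0.18 for HSP104, 0.04 for SSA3, 0.16 for HSP42 and 0.24 for HSP12. Of these HSP12 alone was then called (adjusted p = 0.037, limma). At an unadjusted p under 0.05 there were 4 of 10 members (SSA1, SSA2, SSA4 and HSP82) and 19.9% of all genes.

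**Figure D3:**
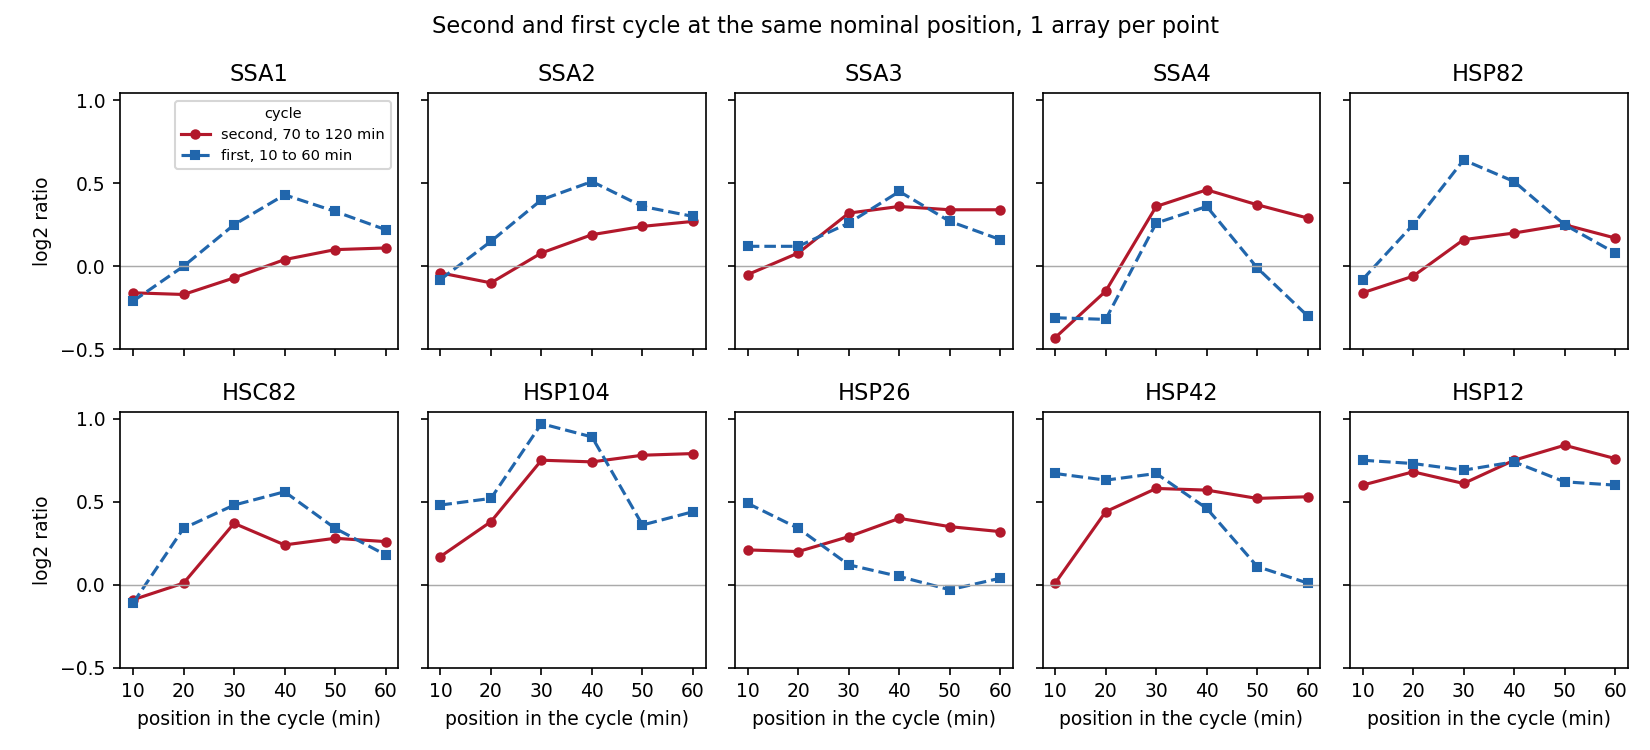
Log2 ratio of each gene against the position in the cycle in min, for the second cycle (red, arrays at 70 to 120 min) and the first cycle (blue, 10 to 60 min), 1 array per point. In SSA1 and SSA2 the second cycle lies below the first at 5 of 6 positions. In SSA4 it lies above the first at 5 of 6, in HSP26 at 4 and in HSP42 at 3. The curves cross in every gene.

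The shape was compared with an interaction of the cosine and sine with the cycle, by which 0.570% of all genes were called and 0 of the 10 members. At an unadjusted p under 0.05 there were 4 members, against 15.2% of all genes. HSP26 had the smallest p of the 10 (adjusted p = 0.11, limma, 0.028 to 1.0 over the 16 alternatives), with a swing of 0.20 in the second cycle and 0.47 in the first. Its fitted peak lay at 45.3 min of the cycle in the second and at 15.6 min in the first, and its 6 positions correlated at -0.88 between the cycles. HSP26 passed without the 60 min array (adjusted p = 0.028, limma) and at a period of 65 min (adjusted p = 0.035, limma). HSP42 had a swing of 0.42 in the second cycle and 0.69 in the first, with peaks at 40.4 and 23.7 min (adjusted p = 0.20, limma), and a correlation of -0.40 between the cycles. HSP82 had a swing of 0.39 in the second cycle and 0.66 in the first, with peaks at 44.8 and 35.1 min (adjusted p = 0.18, limma). Later fitted peaks in the second cycle were also found for SSA1 (49.6 against 42.9 min), SSA2 (49.4 against 41.2 min) and SSA3 (44.1 against 40.9 min). The same held for SSA4 (43.0 against 38.15 min), HSC82 (42.5 against 37.1 min) and HSP104 (44.5 against 32.5 min). Arrays paired at a 60 min distance thus need not match in phase. SSA1 had a swing of 0.31 in the second and 0.57 in the first (adjusted p = 0.31, limma), whereas SSA4 had 0.83 in the second and 0.75 in the first (adjusted p = 0.54, limma). The standard deviation over all rows was also lower in the second cycle at every position (0.28 at 70 min, 0.365 at 10 min). With arrays median-centred and scaled, the swing differences, second minus first, were -0.21 (SSA1), -0.16 (HSP82), -0.21 (HSP26) and -0.13 (HSP42). Unscaled they lay between -0.28 and -0.27. Whether smaller second-cycle swings are particular to these genes was not tested. Over 6 positions the correlation between the cycles was 0.785 for SSA1, 0.73 for SSA4, 0.70 for HSC82, 0.69 for SSA3, 0.68 for SSA2, 0.57 for HSP82 and 0.27 for HSP104. It was below 0 for HSP26, HSP42 and HSP12 (-0.645). Neighbouring arrays of 1 culture share their drift, so these correlations are descriptions.

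Set against the asynchronous culture, the mean ratio of all 10 genes was above 0, and those of HSP12 and HSP104 passed. The mean over the 12 arrays from 10 to 120 min was called where its adjusted p was under 0.05 and its size above 0.5, which was so, on the higher side, for 1.50% of all genes. HSP12 averaged 0.70 ± 0.03 (SE, n = 12 arrays), or 1.62-fold (adjusted p = 7.5e-10, limma), and 99.5% of genes had a lower mean. This order rests on the labelled dyes, and with the ratio turned 0.44% of genes would have a lower mean. HSP104 averaged 0.61 ± 0.05 (SE, n = 12 arrays), or 1.52-fold (adjusted p = 3.3e-07, limma). The estimated correlation gave adjusted p = 1.6e-07 for HSP12 and 6.4e-05 for HSP104 (limma). HSP42 averaged 0.43 ± 0.06 (adjusted p = 1.8e-05, limma; SE, n = 12 arrays) and did not reach the size, though with natural logarithms its mean would be 0.625 on the log2 scale and would pass. The means of HSC82 (0.24 ± 0.04), HSP26 (0.23 ± 0.04), SSA3 (0.23 ± 0.03), SSA2 (0.19 ± 0.03) and HSP82 (0.18 ± 0.04) followed. In that order HSC82, HSP26 and SSA3 were closer to each other than their standard errors, as were SSA2 and HSP82. SSA1 (0.07 ± 0.03) and SSA4 (0.05 ± 0.04) had adjusted p = 0.075 and 0.29 (limma). Without the size condition 8 of 10 members passed, as did 35.9% of all genes on the higher side. The median mean ratio was 0.23 over the 10 genes and -0.001 over all genes. The reference was 1 kind of culture, labelled with Cy3, and its own spread did not enter the test. Synchronised growth, strain, harvest and dye therefore cannot be told apart here.

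At 0 min the cells were still in the pheromone arrest, and this array was set against the mean of 60 and 120 min, with no test. No member differed by more than 1 on the log2 scale, which 1.97% of all genes did. The largest difference was that of HSP42, with 0.57 at 0 min against a mean of 0.27 at 60 and 120 min, and it was 0.56 against 60 min alone and 0.04 against 120 min alone. SSA2 had 0 at 0 min against 0.285, and SSA1 had -0.11 against 0.165. HSP26 had 0.36 against 0.18, the mean of 0.04 at 60 min and 0.32 at 120 min. HSP12 had 0.53 against 0.68. HSP104 had 0.79 against 0.615, a difference of 0.175 that was -0.15 after quantile normalization and 0 against 120 min alone. For SSA3, SSA4, HSP82 and HSC82 the difference was between -0.08 and 0.085. That of SSA4 was 0.38 against 60 min alone and -0.21 against 120 min alone, and those of SSA3 (0.01 and -0.17) and HSC82 (0.06 and -0.02) also differed in sign between these arrays. The median difference was 0.04 over the 10 genes and -0.01 over all genes. The step to 10 min was downward in SSA4, HSC82, HSP104 and HSP82, by 0.39, 0.35, 0.31 and 0.27, and upward in HSP12 by 0.22.

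**Figure D4:**
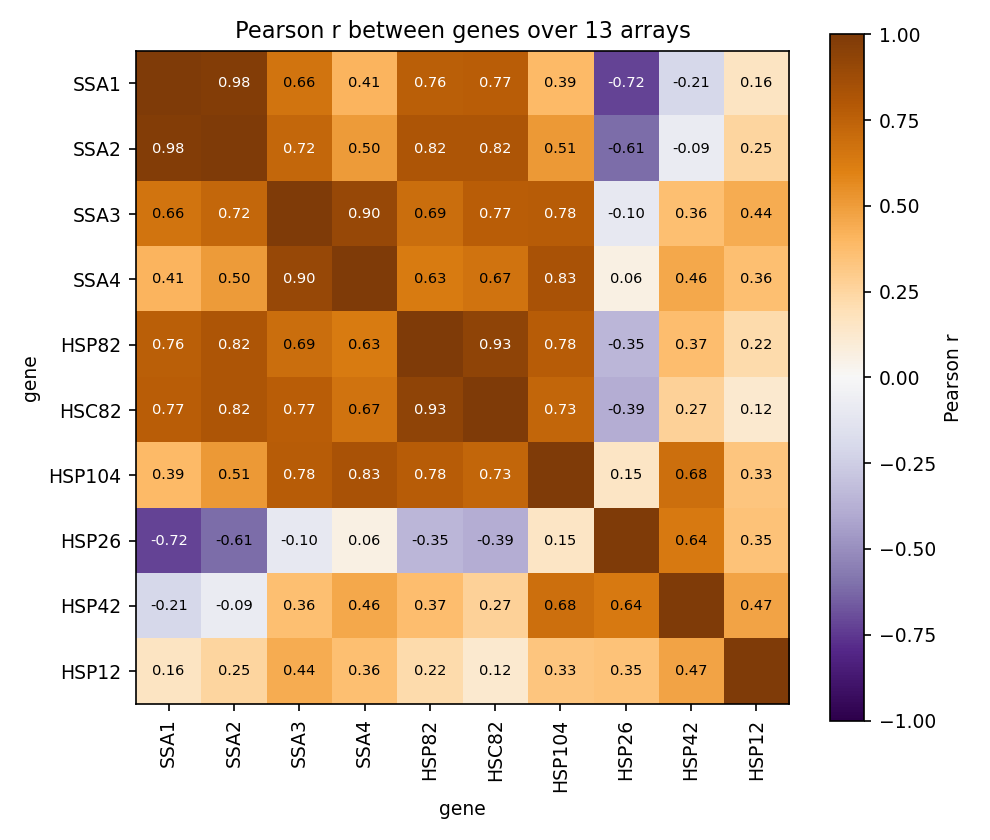
Pearson correlation over the 13 arrays between each pair of the 10 genes (colour and printed value). The 21 pairs among the Hsp70, Hsp90 and HSP104 genes lie between 0.39 and 0.98, and HSP26 is negative with SSA1, SSA2, SSA3, HSP82 and HSC82.

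The correlations describe how the genes varied together over the 13 arrays, which share 1 culture and 1 kind of reference. Of 45 pairs, 38 were above 0. The constitutive Hsp70 genes were close to the Hsp90 genes, with r between 0.76 and 0.82. The induced SSA4 was closer to SSA3 (0.90) and HSP104 (0.83) than to SSA1 (0.41) or SSA2 (0.50). HSP42 correlated at 0.68 with HSP104 and 0.64 with HSP26, and the highest value for HSP12 was 0.47, with HSP42.

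Among 6111 genes outside the 10 that were measured on all arrays, those most like each member were looked up, 3 per member, with Pearson r over 13 arrays. PRE2, a core subunit of the proteasome, and CSE1, the export receptor of importin alpha, were nearest to both SSA1 (r = 0.96 each) and SSA2 (0.945 and 0.96), followed by LDO16 for SSA1 (0.946) and PEX10 for SSA2 (0.93). STI1, the cochaperone that links Hsp70 to Hsp90, was nearest to HSC82 (0.93), ahead of NOB1 and UPF3 (0.93 each). LCB5, a sphingoid base kinase (0.96), YBR242W (0.95) and VPS54 (0.94) were nearest to HSP82. SSA3 was followed most closely by CDC27, a subunit of the anaphase-promoting complex (0.95), GTS1 (0.94) and the drug resistance regulator PDR1 (0.92). STV1, a subunit of the vacuolar-type proton pump (0.94), CDC27 and the glycolytic regulator GCR1 (0.91 each) were nearest to SSA4. CUB1 (0.945), FPT1 (0.89) and YHR049C-A (0.88) were nearest to HSP104. STF2 (0.96), the ubiquitin ligase subunit VID30 (0.92) and the fatty acid synthase gene FAS2 (0.89) were nearest to HSP26, and FSH1, SEC28 and CWP1 to HSP42 (0.935, 0.93 and 0.90). HSP12 had no close match, its nearest being RPS16A (0.80), IST1 (0.75) and YBR099C (0.74).

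Related genes were counted from lists. Each count of periodic genes is to be read beside the 30.1% of all genes that were periodic, or 13.9% with an estimated correlation. Mean ratios were called higher for 1.50% of all genes and lower for 88 of 6137. Of the cochaperones of Hsp70 and Hsp90, 7 of 16 were periodic, with peaks between 30.1 and 46.5 min, against 40.3% of all periodic genes with a peak from 30 to 50 min. With an estimated correlation 0 of the 7 passed, with adjusted p = 0.082 to 0.15 (limma). AHA1, an activator of Hsp90, peaked at 42.4 min with a swing of 0.47 ± 0.11 (adjusted p = 0.018, limma), and YDJ1, a J-protein partner of Ssa1, 0.47 ± 0.12 and 37.0 min (adjusted p = 0.023, limma). The median swing of this list was 0.30. AHA1 and SIS1, another J-protein, had mean ratios of 0.66 ± 0.04 and 0.68 ± 0.03 that were called higher (adjusted p = 1.3e-08 and 7.2e-09, limma). SNL1, a membrane-bound Hsp70 partner, was the 1 gene of the list past the size set for 0 min, by -1.42.

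Of the mitochondrial chaperones 2 of 8 were periodic, ECM10 (0.34 ± 0.07, peak 40.7 min) and the chaperonin HSP60 (0.39 ± 0.09, peak 35.6 min), with adjusted p = 0.054 and 0.093 with an estimated correlation (limma). MDJ1, a J-protein, and the disaggregase HSP78 had mean ratios of 0.73 ± 0.04 and 0.51 ± 0.03, called higher. Of the endoplasmic reticulum chaperones 4 of 11 were periodic, also with an estimated correlation. JEM1, a J-protein (1.00 ± 0.14), and EUG1, a disulfide isomerase (0.57 ± 0.10), peaked at 18.3 and 24.5 min, and the 4 peaks lay between 17.5 and 36.9 min. The share of all periodic genes with a peak in that range was not counted. Of the ribosome-bound chaperones 1 of 7 was periodic, SSB2, with a peak at 11.8 min (0.81 ± 0.21), for which the estimated correlation gave adjusted p = 0.13 (limma). Of 13 chaperonin and prefoldin genes measured 3 were periodic, led by CCT8 (0.26 ± 0.07) and CCT5 (0.24 ± 0.07), and 0 with an estimated correlation (adjusted p = 0.13 to 0.16, limma). Median swings of these lists were 0.18 (mitochondrial), 0.27 (endoplasmic reticulum), 0.13 (ribosome-bound) and 0.18 (chaperonins), against 0.21 over all genes.

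Of the other heat shock genes 5 of 11 were periodic (median swing 0.39), 3 of them with an estimated correlation. HSP150, a cell wall protein despite its name, had 2.22 ± 0.31 and a peak at 8.63 min, and HSP30, a plasma membrane protein, 0.53 ± 0.08 and 34.3 min. Mean ratios of CUR1 (0.71 ± 0.04) and BTN2 (0.95 ± 0.08), which sort misfolded proteins, were called higher, and those of HSP30 (-0.51 ± 0.03) and HSP150 (-0.61 ± 0.11) lower. Of the general stress targets 9 of 27 were periodic (median swing 0.28), 7 of them with an estimated correlation, and 8 of the 9 peaked between 1.73 and 11.6 min, with DCS2 at 41.6 min as the exception. HOR7 (0.91 ± 0.09) and TPS2, an enzyme of trehalose synthesis (0.66 ± 0.11), peaked at 11.6 and 1.73 min. The share of all periodic genes with a peak between 1.73 and 11.6 min was not counted. The difference in peak time between this list and the Hsp70 and Hsp90 genes was not tested. DDR2 had a mean ratio of 0.50 ± 0.03 that was called higher, YGP1 differed at 0 min by -2.11, and the glucokinase gene GLK1, with a swing of 0.41 in the second cycle and 1.20 in the first, was the 1 gene of all lists called in the interaction test (adjusted p = 0.04995, limma). With an estimated correlation 0 of all genes passed that test, and the adjusted p of GLK1 was 1.0.

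Of the regulators of the heat shock and stress responses 5 of 14 were periodic (median swing 0.29), and 0 with an estimated correlation (adjusted p = 0.063 to 0.14, limma). YAK1, a kinase that counters protein kinase A, had 0.33 ± 0.07 and a peak at 1.25 min, and MSN4 0.42 ± 0.11 and 5.69 min. HSF1, named here after its values were seen, had 0.32 ± 0.08 and a peak at 45.0 min (adjusted p = 0.025, limma), and MSN2, likewise, 0.25 ± 0.08 without passing (adjusted p = 0.054, limma). Of 15 ribosomal protein genes 1 was periodic, RPL25 (0.23 ± 0.07), for which the estimated correlation gave adjusted p = 0.22 (limma). For the level between the cycles, 0 genes of these lists were called. Of the MATa markers 4 of 6 were periodic (median swing 1.76), led by STE6 and MFA2, and 3 with an estimated correlation, where BAR1 had adjusted p = 0.13 (limma). The mean ratios of STE2 and BAR1 were among the 4 called lower, and 4, led by AGA2 (2.86) and MFA1 (2.55), were past the size set for 0 min. Of the alpha cell markers STE3 (0.23 ± 0.07) and of the diploid and meiotic markers DIT1 (0.31 ± 0.07) were periodic, with adjusted p = 0.17 and 0.099 with an estimated correlation (limma). Among the cell type markers 1 gene, BAR1, was higher in the second cycle (0.89 ± 0.12; adjusted p = 0.012, limma), for which the estimated correlation gave adjusted p = 0.28.

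**Figure D5:**
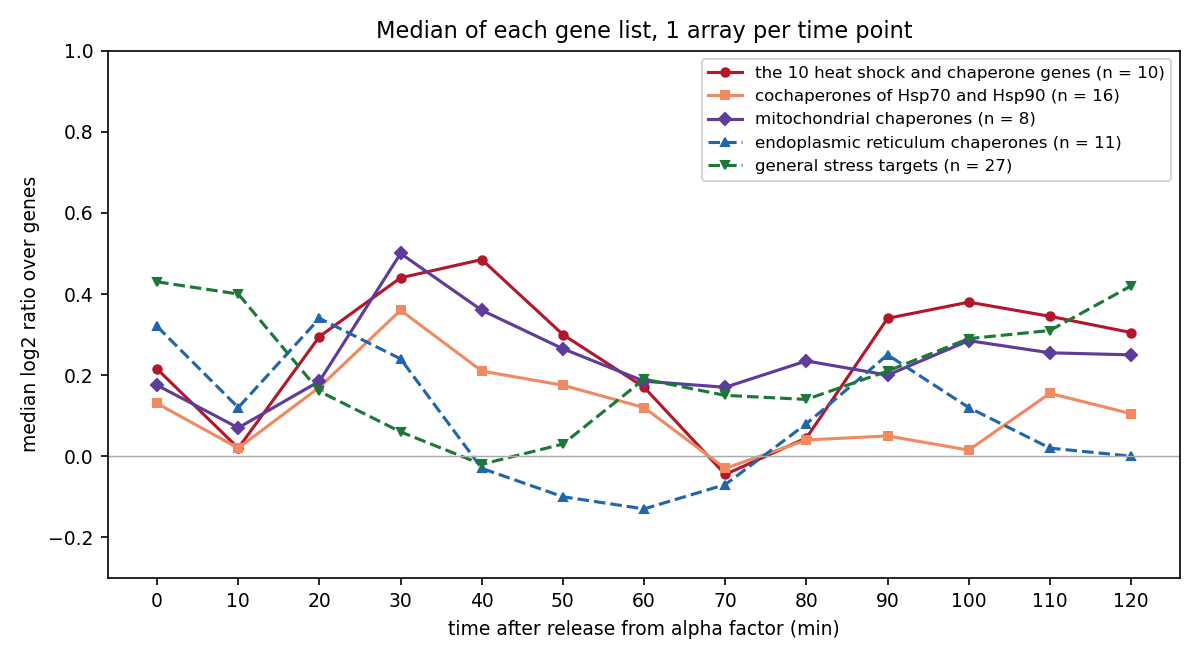
Median log2 ratio to the asynchronous culture over the genes of 5 lists, against time after release in min, 1 array per time point. The 10 heat shock and chaperone genes have their highest median, 0.485, at 40 min and their lowest, -0.045, at 70 min, while the general stress targets are lowest at 40 min (-0.02) and near their highest at 0 and 120 min (0.43 and 0.42).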

How the data were processed

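The deposited table holds 1 value per row and array, a log ratio deposited by the authors, which was read as log2 with Cy5 on top and Cy3 below. No source used here gives its direction, normalization, log base, scanner or background correction. The table had 6295 rows, 108 of them empty. Through RefSeq's gene table (assembly R64) 5768 rows were named by their locus tag and 49 by a synonym, 458 kept the file's name, and 20 with no readable name were left out. Rows of 1 gene were averaged (27 genes), which left 6140 genes, of which 6137 with at least 10 arrays were tested.

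Models were fitted over all genes with limma 3.58.1 in R 4.3.3, and Benjamini-Hochberg adjustment ran over every gene tested. They were tried on simulated data with noise independent between arrays. False calls under a correlation between neighbouring arrays were therefore not counted. The periodic fit had an intercept, linear time and a 60 min cosine and sine. The level of the second minus the first cycle had the position as a block. The interaction and mean-level fits used 10 to 120 min. The estimated correlation is a first-order autoregression common to all genes (0.42 to 0.54). Figures used matplotlib 3.10.9 in Python 3.11.15.

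The members and the lists were chosen with earlier results of these data known. All 10 members are named, with the 2 genes of smallest p among those called per list and test (by size of difference at 0 min), and the 3 genes most like each member. List counts: cochaperones, ribosome-bound, chaperonin, mitochondrial and endoplasmic reticulum chaperones, other heat shock genes, regulators, general stress targets, ribosomal proteins and cell type markers.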

Additional observations from a re-analysis of the deposited data

How the results depend on the processing

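The count of periodic genes was 6 of the 10 members and 1847 of all genes. It was 1 and 850 with an estimated correlation between neighbouring arrays and 1 and 950 at a period of 55 min. Longer periods gave 6 and 1913 at 65 min and 7 and 1436 at 70 min. Leaving out single arrays gave 1 to 7 members and 1187 to 1919 genes, with 1 member without the 40 min array (1187 genes) or without the 70 min array. The swing of SSA4 kept its call in all 20 alternatives, those of SSA3, HSP82 and HSC82 in 16 each, of SSA1 in 13 and of SSA2 in 12. For the level between the cycles, 0 members and 87 genes were called. The genes were 4 with an estimated correlation, 318 after quantile normalization (with 1 member, HSP12), 218 after median-centring and scaling, 0 without the block (846 had a limma p under 0.05 before adjustment) and 232 by a linear slope. Leaving out 1 array and with it its partner gave 0 to 1 members, the 1 being SSA1 without 10 and 70 min, and 17 to 244 genes. For the interaction, 0 members and 35 genes were called. The genes were 0 with an estimated correlation (152 had a limma p under 0.05 before adjustment), 12 after quantile normalization, 18 after median-centring and scaling and 166 at 65 min, where HSP26 was the 1 member called. Single arrays left out gave 0 to 1 members and 3 to 235 genes, the highest, with HSP26, without the 60 min array and the lowest without the 80 min array. The cause was not tested. The mean-level calls of HSP12 and HSP104 held in all 16 alternatives, and the 0 min comparison called 0 members in all 5. No called value of a member changed sign or moved its peak by over 15 min. The labels give no replicate numbers, so arrays were paired only by position in the cycle. The 1 culture and 1 array per time point limit all p-values to departures from a fitted model.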
